A study of Mus musculus with 19 samples.

Results

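CD8 T lymphocytes that lack the transcription factor T-bet and carry an active form of Stat5 (T-betKO Stat5ca) were set against T-bet-sufficient CD8 T lymphocytes with the same active Stat5 (Stat5ca), both recovered from mice after transfer. The arrays were chosen by their labels, 7 of the 19 in the series, and all 19938 genes measured with a probe set of their own were tested. RNA from purified CD8 T lymphocytes, 0.125 µg per array, was hybridised to Affymetrix mouse gene arrays. Values are log2 signals, so a difference of 1 is a 2-fold change.

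The 3 T-betKO Stat5ca arrays (replicates 39 and 40 at day 14, replicate 41 at day 54 after transfer) are labelled with genotype T-BetKO, strain C57BL/6 and genetic background B10.D2. The series text says that these cells were activated with antibodies to CD3 and CD28 and given active Stat5 a day later. The 4 Stat5ca arrays (replicates 11 to 14, day 20) came from Rag-1-/- B10.D2 cells with the transgenic T-cell receptor TCRP1A, which were activated by the antigen that this receptor recognises. Both groups went into congenic hosts and were recovered from spleen and lymph nodes. The T-betKO RNA was labelled with a different kit. Genotype therefore cannot be told apart from strain, stimulus, labelling and day of recovery, and no T-betKO cells without active Stat5 were analysed here. The T-betKO genotype label also lacks Rag-1-/- and TCRP1A, and Y-linked signal and RNA integrity differ in part between the groups. Nothing in the labels ties replicates to separate animals or cultures, so the p-values cover the spread between arrays, which may be technical.

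T-bet, the product of Tbx21, is a T-box transcription factor that binds the control regions of genes such as Ifng and Cxcr3. It drives type 1 differentiation in CD4 T cells and effector differentiation in CD8 T cells, where the related factor Eomes shares part of its work. T-bet also restrains the type 2 and type 17 programmes, partly by opposing GATA3 and RUNX1. Stat5 transmits signals of interleukin 2 and related cytokines, and its active form signals without them.

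The labels were first set against the data. Tbx21 read 8.18, 8.19 and 8.34 on the T-betKO Stat5ca arrays, against 11.77, 11.77, 11.97 and 11.81 on the Stat5ca arrays. All 3 T-betKO arrays lay below every Stat5ca array and close to naive cells, whose mean was 8.54. The difference was -3.60 ± 0.13 (log2, SE), a 12.1-fold lower signal, with limma adjusted p = 5.08e-11. The sources used here do not say which exons the knockout lacks, so the residual signal cannot be assigned to transcript or background. Stat5a, which the active Stat5 construct can raise, read 10.86, 10.89 and 11.06 on the T-betKO arrays and 11.81, 11.65, 11.73 and 11.54 on the Stat5ca arrays. Transferred control cells without the construct read 10.03 and 10.46, so both Stat5ca groups lay above them, the T-betKO group by less. The Stat5a difference was -0.75 ± 0.11 (adjusted p = 0.00033). Whether a lower Stat5a signal took part in the results below was not tested. Stat5b differed by 0.00 ± 0.11 (adjusted p = 0.99).

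Strain and receptor genes separated the groups as well. H2-Ea, an MHC class II chain that is silent in C57BL/6 mice, read 6.51, 6.55 and 6.97 on the T-betKO arrays, against 12.91, 13.01, 13.08 and 12.99 on the Stat5ca arrays. It showed the largest fall of all named genes (-6.32 ± 0.41, adjusted p = 7.77e-08, or -5.69 when the T-betKO mean is raised to background). The class II chain genes H2-Aa (0.64), H2-Ab1 (1.31) and H2-Eb1 (0.55) did not pass the test. Of 9 measured class II genes 2 rose and 1 fell, and 6 rose and 1 fell with only the 7 compared arrays in the fit. For 6 of the 9 every T-betKO value lay above every Stat5ca value, against 10.5% of all genes. With the mean signal of myeloid markers in the fit 0 rose and 1 fell. Background here is 7.31, below which 95% of the signals of olfactory and vomeronasal receptor genes lay. Among T-cell receptor variable segments, Trbv1 rose by 2.03, Trav19 by 1.60 and Trav7n-5 by 3.35, while Trdv2-2 fell by 1.76. Counted from background, Trav7n-5 differed by 1.60 and Trdv2-2 by -1.26. Probe sets of such segments can share sequence with near-identical copies, so these values are uncertain for the single segment. The T-betKO genotype label names neither TCRP1A nor Rag-1-/-, whereas the series text calls all the donor cells TCRP1A.

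The T-betKO arrays were not alike. Over all genes, the difference between the day 14 replicates 39 and 40 had an SD of 0.193, whereas the day 54 replicate differed from them with SDs of 0.485 and 0.466. Pairs of Stat5ca arrays gave 0.139 to 0.249, with replicate 13 in the 3 widest pairs. The mean signal of 18 myeloid marker genes was 12.09 and 12.02 at day 14 and 10.43 at day 54 on the T-betKO arrays, against 10.26, 10.27, 9.35 and 10.25 on the Stat5ca arrays. Neutrophil markers read 11.30, 10.97 and 9.12 on the T-betKO arrays and 9.51, 9.62, 8.09 and 9.75 on the Stat5ca arrays. The T-cell identity list read 11.85, 11.73 and 12.30 on the T-betKO arrays, against 12.31, 12.32, 12.28 and 12.34. The day 54 array thus had T-cell and myeloid levels near those of the Stat5ca arrays, and the day 14 arrays did not. B-cell markers read 7.27 to 7.52 on the T-betKO arrays and 7.16 to 7.19 on the Stat5ca arrays. The 3 measured Y-linked genes averaged 8.26, 7.94 and 9.79 on the T-betKO arrays and 5.49, 5.51, 9.64 and 5.44 on the Stat5ca arrays. They were thus high on the day 54 T-betKO array and Stat5ca replicate 13, and low on the other Stat5ca arrays. The day 14 T-betKO arrays lay between these levels. The RNA integrity number was 7, 6 and 8 in the T-betKO group and 9, 8, 9 and 8 in the Stat5ca group. In bulk RNA, fewer cells of a type and less RNA per cell cannot be told apart.

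**Figure D1:**
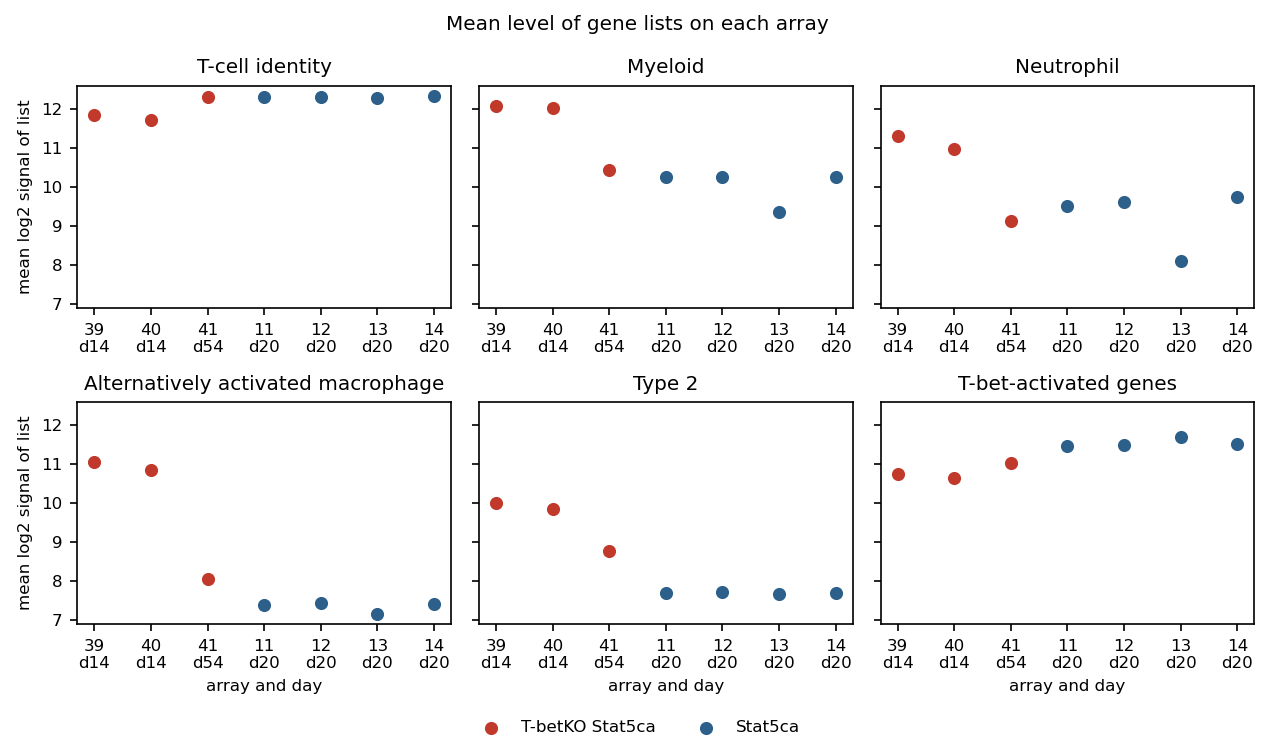
Mean log2 signal of the measured members of 6 gene lists (vertical axis) on each array (horizontal axis, replicate number and day); red points are T-betKO Stat5ca arrays and blue points Stat5ca arrays. Myeloid markers stand at 12.09 and 12.02 on the day 14 arrays and at 10.43 on the day 54 array, while type 2 genes stay above all Stat5ca arrays at day 54 (8.77 against at most 7.70).

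At an adjusted p under 0.05, 4155 of 19938 genes (20.8%) were called, 1401 rising (7.03%) and 2754 falling (13.8%) in T-betKO Stat5ca cells. The median change of all genes was -0.02. Counts of risen and fallen list members below stand against these shares of 7.03% and 13.8%. The groups did not overlap in 30.4% of genes, with T-betKO higher in 10.5% and lower in 19.9%. Of calls of at least 2-fold, 526 in all (2.64%), more were rises (401, or 2.01%) than falls (125, or 0.627%). Of the 401 rises, 390 differed from the Stat5ca mean by at least 1 at day 14 and 74 at day 54, and of the 125 falls, 120 did at day 14 and 48 at day 54. Leaving out replicate 39 gave 2614 calls and leaving out replicate 40 gave 1790. Adding the RNA integrity number to the fit left 1379 calls (6.92%, 1.84% rising and 5.08% falling). Adding the mean myeloid level left 2724 calls (13.7%, 4.72% rising and 8.94% falling).

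Most genes that T-bet is known to activate fell. Of 24 measured members of this list, 15 fell and 0 rose, with a median change of -0.66 against -0.02 over all genes. The list mean was 10.74, 10.63 and 11.04 on the T-betKO arrays and 11.46 to 11.70 on the Stat5ca arrays. Transferred control cells without active Stat5 read 10.80 and 10.69, within the T-betKO range. Their Tbx21 signal lay above every T-betKO array. A list mean this low was thus not particular to cells without T-bet. How far the falls depend on the loss of T-bet was not tested. Cxcr3, the chemokine receptor that brings T cells to interferon-rich tissue, read 10.16, 9.98 and 10.92 on the T-betKO arrays and 12.26, 12.22, 12.20 and 12.21 on the Stat5ca arrays. All T-betKO values lay below the Stat5ca values, with the day 54 array nearest to them (-1.87 ± 0.21, adjusted p = 4.3e-05). Ifng, the cytokine that defines type 1 responses, read 11.71, 11.48 and 12.48 on the T-betKO arrays, against 13.33, 13.47, 13.24 and 13.51. It fell by 1.50 ± 0.29 (adjusted p = 0.0024), and the groups did not overlap.

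Klrg1, an inhibitory receptor of terminal effector cells, read 8.25, 8.06 and 7.70 on the T-betKO arrays and 9.86, 10.27, 11.65 and 10.30 on the Stat5ca arrays. S1pr5, a receptor for tissue exit whose transcription depends on T-bet, read 8.14, 8.15 and 8.07 on the T-betKO arrays, against 10.02, 10.17, 11.14 and 10.37. Both were as low at day 54 as at day 14, and both were highest on Stat5ca replicate 13. The differences were -2.51 ± 0.35 for Klrg1 and -2.30 ± 0.29 for S1pr5 (adjusted p = 0.00024 and 0.0001). The cytokine receptor chains Il12rb2 (-1.25), Il18r1 (-1.16) and Il2rb (-0.57) fell, as did the cytotoxic granule gene Nkg7 (-0.64). Stat4, the transducer of interleukin 12 signals, fell by 0.86 ± 0.14 (adjusted p = 0.00091). On day 54 Il18r1 read 11.85, just under the Stat5ca range of 11.92 to 11.99, whereas day 14 gave 10.28 and 10.26.

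Eomes, the related T-box factor, read 11.28, 10.98 and 12.12 on the T-betKO arrays and 11.77, 11.91, 11.82 and 11.86 on the Stat5ca arrays. Its day 54 value was above, and its day 14 values below, all Stat5ca arrays, and it was not called (-0.38 ± 0.40, adjusted p = 0.56). Among the T-bet-activated genes not called, the chemokine gene Ccl3 differed by -0.08, and Zeb2, a repressor that works with T-bet in terminal effector differentiation, by 0.87 (adjusted p = 0.29). With the myeloid level in the fit these were -1.13 for Ccl3 (adjusted p = 0.0502) and -0.15 for Zeb2, and Zeb2 differed by 1.34 at day 14 and -0.08 at day 54. Without the day 14 arrays 3 of the 24 list members fell, and with the RNA integrity number in the fit 9 did, while Il12rb2 (-1.06, adjusted p = 0.054) and Il18r1 (-0.65, adjusted p = 0.2) lost their calls. With the myeloid level in the fit the counts were 15 falls and 1 rise.

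The cytotoxic list gave 10 falls and 1 rise among 22 measured genes (median -0.44), against 13.8% falling and 7.03% rising over all genes. Gzmm, a granzyme of NK cells and innate-like T cells, read 8.18, 8.20 and 7.97 on the T-betKO arrays and 11.05, 11.12, 11.10 and 10.86 on the Stat5ca arrays. The groups stood almost 3 units apart at both days, and transferred control cells read 8.23 and 8.97. The fall was 2.92 ± 0.13 (adjusted p = 8.98e-10). Prf1, the pore-forming perforin, read 9.14, 8.94 and 10.33 on the T-betKO arrays, against 10.95, 11.01, 11.10 and 10.94, a difference of -1.53 ± 0.24 (adjusted p = 0.00056). Gzmb, the granzyme of activated killer T cells, read 13.03, 12.90 and 13.38 on the T-betKO arrays and 13.57, 13.65, 13.80 and 13.61 on the Stat5ca arrays. Every T-betKO value was lower, but the gene did not pass the test (-0.55 ± 0.30, adjusted p = 0.22). That SE draws on the spread within all groups of the series, and naive cells read 6.86 to 8.75. Within the compared groups the SDs were 0.25 (T-betKO) and 0.10 (Stat5ca), so the missed call does not show that Gzmb was unchanged. With only the 7 compared arrays in the fit, 12 cytotoxic genes fell and 2 rose.

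Calls of 3 other cytotoxic genes were lost when a single array was left out, though their groups did not overlap. The death ligand gene Fasl fell by 1.45, or by 1.10 without T-betKO replicate 40 (adjusted p = 0.063). Gzmk fell by 1.35, with -1.14 (adjusted p = 0.058) without replicate 39 and -1.12 (adjusted p = 0.074) without replicate 40. Gzma fell by 1.09 (adjusted p = 0.033). Its adjusted p was 0.056 to 0.11 when T-betKO replicate 39, 40 or 41 or Stat5ca replicate 12, 13 or 14 was left out, with changes of -1.15 to -0.95. Crtam, an adhesion receptor of killer cells, fell by 1.34. The list had 3 falls with the RNA integrity number in the fit, where Fasl, Gzmk, Gzma and Crtam were not called (adjusted p = 0.079 to 0.22), and 1 without the day 14 arrays.

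Of 23 lectin-like and NK receptor genes, 11 fell and 0 rose (median -0.66), against 13.8% falling and 7.03% rising over all genes. These receptors tune killing by recognition of MHC class I and related ligands. Klra5, a member of the Ly49 family, read 7.85, 6.81 and 6.35 on the T-betKO arrays and 10.85, 10.96, 11.76 and 11.19 on the Stat5ca arrays. The day 54 array was the lowest of all. The difference was -4.19 ± 0.27 (adjusted p = 7.77e-08), or -3.89 counted from background. Ly49 genes differ between mouse strains, and the strain label differs between these groups, so genotype and strain cannot be told apart for them.

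Klre1 read 5.93, 5.78 and 6.12 on the T-betKO arrays and 8.05, 8.65, 9.26 and 8.69 on the Stat5ca arrays (-2.72 ± 0.20, or -1.36 counted from background). All 3 T-betKO values were under background and all 4 Stat5ca values above it. Klrb1c, which codes for NK1.1 in C57BL/6 mice, read 8.36, 8.12 and 9.38 on the T-betKO arrays, against 10.69 to 11.78 on the Stat5ca arrays, where replicate 13 was highest (-2.51 ± 0.35, adjusted p = 0.00025). The NKG2 genes were low at day 14 and nearer the Stat5ca arrays at day 54. Klrc2, an activating NKG2 chain, read 8.11, 8.00 and 10.44 on the T-betKO arrays and 10.57, 10.79, 11.50 and 10.95 on the Stat5ca arrays. Klrc3 read 6.57, 6.31 and 9.03 on the T-betKO arrays and 9.54, 9.89, 10.65 and 10.02 on the Stat5ca arrays. They fell by 2.10 ± 0.44 and 2.73 ± 0.47 (adjusted p = 0.0036 and 0.001). With the RNA integrity number in the fit Klrc2 was at -1.05 and not called (adjusted p = 0.17), and Klrc3 was at -2.04 (adjusted p = 0.047).

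Klrk1, the activating receptor NKG2D, fell by 1.83, and Klrd1 (CD94), the partner chain of NKG2A and NKG2C, by 1.81. Klrc1, which codes for the inhibitory receptor NKG2A, fell by 1.67, and by 1.34 without T-betKO replicate 40 (adjusted p = 0.059). Cd226, an activating receptor for nectin-family ligands, and Cd160 each fell by 1.51 (SE 0.18). Rab27b, which serves granule release, read 7.34, 7.29 and 8.41 on the T-betKO arrays and 10.29, 10.37, 10.52 and 10.48 on the Stat5ca arrays (-2.73 ± 0.21, adjusted p = 6.03e-07). Prr5l, which codes for a binding partner of mTORC2, fell by 2.11. Without the day 14 arrays 5 of the 23 lectin-like and NK receptor genes fell, and with the RNA integrity number in the fit 8 did, Klrk1 (-1.18, adjusted p = 0.15) and Klrc1 (-1.12, adjusted p = 0.18) not among them.

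**Figure D2:**
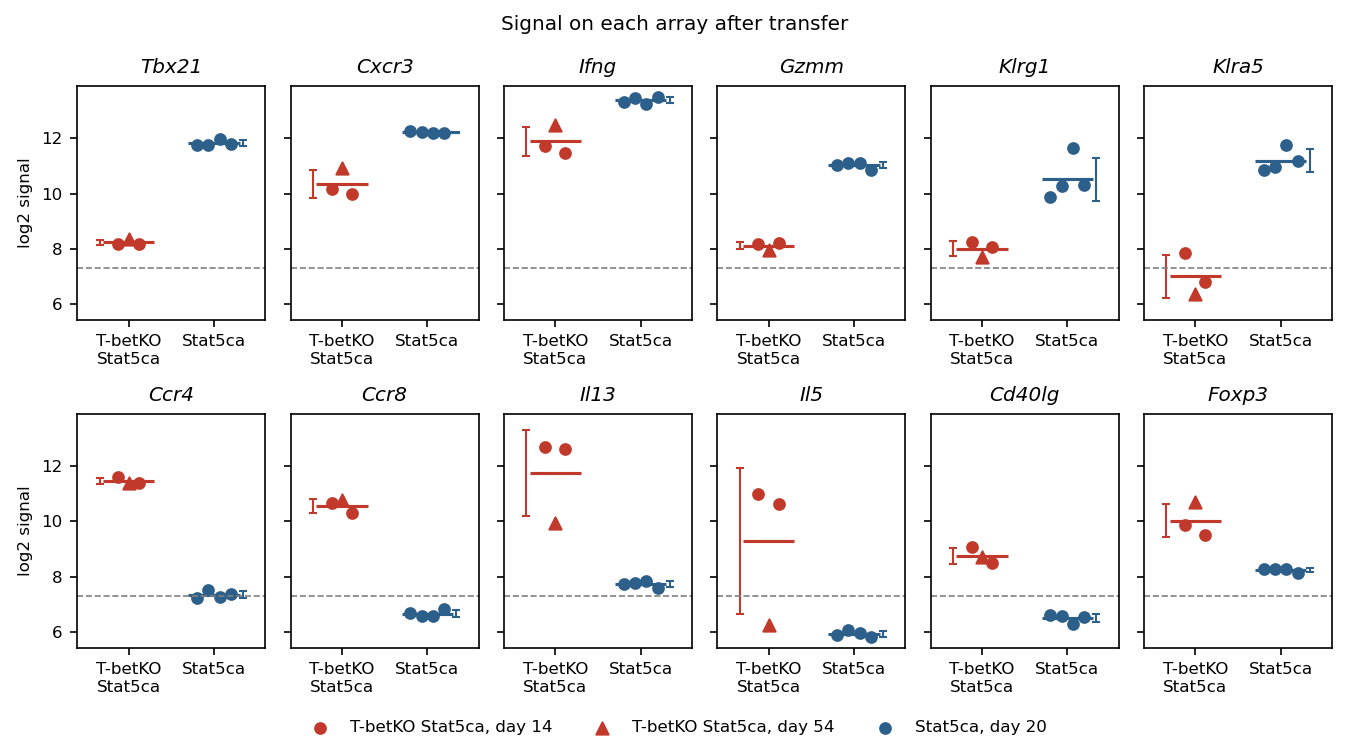
Log2 signal (vertical axis) of 12 genes on each T-betKO Stat5ca array (red; circles day 14, triangles day 54) and each Stat5ca array (blue circles, day 20); horizontal bars are group means, error bars SD (n = 3 and n = 4), and the dashed line is background at 7.31. The groups do not overlap in any panel, as in 30.4% of all genes. Tbx21, Gzmm, Klrg1, Klra5, Ccr4, Ccr8, Il13 and Il5 are among the 12 largest rises or falls, a ranking that required it. Il5 at day 54 (6.26) lies just above the Stat5ca arrays (5.82 to 6.06).

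Most type 2 genes rose. Of 11 measured members 8 rose and 1 fell, with a median of 1.33. Ccr4, a chemokine receptor of type 2 and regulatory T cells, read 11.59, 11.40 and 11.38 on the T-betKO arrays and 7.23, 7.51, 7.28 and 7.37 on the Stat5ca arrays. The day 54 array was level with day 14, and transferred control cells read 7.11 and 7.14. The rise was 4.11 ± 0.21, or 17.3-fold (adjusted p = 2.86e-09). Ccr8, another receptor of this class, read 10.66, 10.29 and 10.76 on the T-betKO arrays, against 6.68, 6.59, 6.57 and 6.82 (3.90 ± 0.19, or 3.26 counted from background). In control cells after transfer it was at 5.93 and 6.02.

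The type 2 cytokine genes were highest at day 14. Il13 read 12.69, 12.61 and 9.96 on the T-betKO arrays and 7.74, 7.77, 7.85 and 7.57 on the Stat5ca arrays (4.02 ± 0.42, adjusted p = 2.09e-05). It was above all Stat5ca arrays at both days, and was also called from the day 54 array alone (2.23, adjusted p = 2.17e-07, with the spread of the other groups assumed for it). Il5, the eosinophil growth factor, read 10.99, 10.63 and 6.26 on the T-betKO arrays, against 5.88, 6.06, 5.96 and 5.82. Its rise of 3.36 ± 0.71 (adjusted p = 0.0038, or 1.99 counted from background) rested on day 14, since the day 54 value was under background. Il4 read 8.86, 8.53 and 7.44 on the T-betKO arrays and 6.84, 6.99, 6.99 and 6.95 on the Stat5ca arrays (1.33 ± 0.21, or 0.97 counted from background).

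Il10, a suppressive cytokine, rose by 2.09 (0.44 counted from background), and the growth factor gene Il9 by 0.96 (0.66 counted from background). Il24 rose by 0.70 under background. Without T-betKO replicate 39 its rise was 0.55 (adjusted p = 0.058), and 0.60 without replicate 40 (adjusted p = 0.063). Ptgdr2, the prostaglandin D2 receptor, was the member that fell (-0.36), with -0.26 (adjusted p = 0.11) without T-betKO replicate 39 and -0.32 (adjusted p = 0.051) without Stat5ca replicate 13. Gata3, the transcription factor of type 2 differentiation, read 11.58, 11.40 and 10.89 on the T-betKO arrays and 11.41, 11.21, 11.23 and 11.42 on the Stat5ca arrays. The groups overlapped and it was not called (-0.03 ± 0.23, adjusted p = 0.95). Il4ra, the interleukin 4 receptor chain, differed by 0.27 (adjusted p = 0.1), and by 0.37 without T-betKO replicate 41 (adjusted p = 0.035). Il17rb, the receptor chain for interleukin 25, rose by 2.24 ± 0.23 (adjusted p = 1.83e-05). With the RNA integrity number in the fit 5 of the 11 type 2 genes rose, Il5 (1.99, adjusted p = 0.15), Il10 (1.43, adjusted p = 0.083) and Il24 (0.52, adjusted p = 0.17) losing their calls, and with the myeloid level 8 did.

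Of 16 type 17 genes, 7 rose and 0 fell (median 0.28), against 7.03% rising and 13.8% falling over all genes. The cytokines themselves were close to background. Il17a rose by 0.39, and by 0.34 without T-betKO replicate 40 (adjusted p = 0.078), and Il17f differed by 0.17 (adjusted p = 0.39). Of the transcription factor genes on the list, Maf, Ahr, Rora and Irf4 rose, while Batf (-0.03) and Stat3 (0.07) were not called. Maf read 11.52, 11.56 and 10.29 on the T-betKO arrays and 9.14, 9.23, 8.83 and 9.14 on the Stat5ca arrays (2.04 ± 0.37, adjusted p = 0.0014). Transferred control cells, whose myeloid level was also high, read 11.45 and 11.59, and with the myeloid level in the fit the Maf change was 1.30. Ahr, the aryl hydrocarbon receptor, read 12.03, 12.08 and 10.97 on the T-betKO arrays, against 9.96, 9.95, 9.82 and 9.83 (1.80 ± 0.24). Both stood above every Stat5ca array at both days and were higher at day 14. Control cells after transfer read 10.05 and 10.47 for Ahr. Rora, a nuclear receptor of type 17 and innate lymphoid cells, rose by 1.0 ± 0.07 (adjusted p = 2.32e-07), and Irf4, the interleukin 6 receptor gene Il6ra and the chemokine receptor gene Ccr6 rose by 0.93, 0.91 and 0.60. For Ccr6 and Il17a the changes counted from background were 0.015 and 0.28. With the RNA integrity number in the fit 4 of the 16 rose, and Irf4, Ccr6 and Il17a were not called (adjusted p = 0.085, 0.068 and 0.12).

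Among 17 type 1 cytokine and chemokine genes 6 rose and 5 fell (median 0.18), against 7.03% rising and 13.8% falling over all genes. Il10 is counted both here and among the type 2 genes. With dim genes left out 3 of 14 rose and 5 fell, and with the RNA integrity number in the fit 3 of 17 rose and 4 fell. Beside Ifng, Tnfsf14 (LIGHT) fell by 1.07 and Ltb (lymphotoxin beta) by 0.81. Il2, the T-cell growth factor that T-bet is known to limit, read 6.68, 7.02 and 8.54 on the T-betKO arrays and 6.32, 6.28, 6.02 and 6.32 on the Stat5ca arrays. Only the day 54 array was above background (1.18 ± 0.29, adjusted p = 0.0091, or 0.11 counted from background). Ccl1, the ligand of CCR8, rose by 1.42, and Tnfsf11 (RANK ligand) by 1.64 ± 0.18 (adjusted p = 3.77e-05).

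Several genes of helper and regulatory T cells rose. Of 7 genes of the CD4 and regulatory list 4 rose and 0 fell (median 1.33). Tnfrsf4 (OX40) read 11.44, 11.18 and 10.73 on the T-betKO arrays and 8.85, 8.69, 8.73 and 8.83 on the Stat5ca arrays (2.34 ± 0.16, adjusted p = 1.02e-07). Cd40lg, the helper ligand for B cells and dendritic cells, read 9.07, 8.50 and 8.70 on the T-betKO arrays, against 6.60, 6.57, 6.27 and 6.53 (2.26 ± 0.12, or 1.45 counted from background). Cd40lg differed by 2.29 at day 14 and 2.20 at day 54, and Tnfrsf4 by 2.54 and 1.95. Foxp3, the factor of regulatory T cells, read 9.86, 9.52 and 10.71 on the T-betKO arrays and 8.28, 8.29, 8.27 and 8.13 on the Stat5ca arrays. Its day 54 value was the highest (1.79 ± 0.19, adjusted p = 2e-05). Cd4 read 9.26, 9.44 and 8.27 on the T-betKO arrays and 8.38, 8.13, 8.24 and 8.35 on the Stat5ca arrays, so it was raised at day 14 and within the Stat5ca range at day 54 (0.71, adjusted p = 0.081, or 1.07 with adjusted p = 0.0058 without replicate 41). Cd8a read 12.16, 12.01 and 12.91 on the T-betKO arrays, against 12.83, 12.85, 12.85 and 12.81. At day 54, Cd4 was in the Stat5ca range and Cd8a above it. On that array Foxp3, Cd40lg and Ccr4 were as high or nearly as high as at day 14, while Tnfrsf4, Il13 and Il5 were lower. The part of CD4 cells in these values was not tested at either day. The CD4 and regulatory list averaged 9.88, 9.72 and 9.60 on the T-betKO arrays and 8.28 to 8.48 on the Stat5ca arrays. Activated CD8 cells that were not transferred gave 9.80 and 9.64 with active Stat5 and 9.27 to 9.34 without it. A raised list mean was thus not particular to T-betKO cells. With active Stat5 in those cells, Ctla4 lay above every T-betKO array, and Cd40lg and Foxp3 below. Tnfrsf4 and Cd40lg are also counted as costimulatory genes, and Ctla4 as inhibitory.

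The call for Cd8a (-0.47, adjusted p = 0.039) was lost without any 1 of T-betKO replicates 39 and 40 and Stat5ca replicates 11 to 14, with changes of -0.48 to -0.30 and adjusted p of 0.067 to 0.25. Without both day 14 arrays the change was 0.07. The identity list of 12 measured genes gave 5 falls and 1 rise (median -0.39), the falls including the receptor chains Cd3d (-0.77) and Cd247 (-1.0). Cd5, which dampens receptor signals, rose by 0.59.

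Of 13 costimulatory receptor genes 5 rose and 2 fell (median 0.19), against 7.03% and 13.8% of all genes. Of 17 genes of inhibitory receptors and the exhaustion factors Tox and Tox2, 7 rose and 2 fell (median 0.69), but with the RNA integrity number in the fit 1 rose and 2 fell. Icos read 12.14, 12.11 and 12.21 on the T-betKO arrays and 10.40, 10.43, 10.03 and 10.46 on the Stat5ca arrays (1.82 ± 0.17, adjusted p = 3.89e-06). The 3 T-betKO values were almost level. The inhibitory receptor genes Ctla4, Pdcd1, Lag3, Tigit and Cd200r1 rose by 1.33, 1.40, 1.24, 1.03 and 1.66 (1.16 for Cd200r1 counted from background). With the RNA integrity number in the fit Ctla4 alone of these 5 was called, and Pdcd1, Lag3, Tigit and Cd200r1 had adjusted p of 0.067 to 0.09. Cd27, a costimulatory receptor of memory precursors, fell by 1.22 ± 0.23 (adjusted p = 0.064 with the RNA integrity number).

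Genes of tissue homing moved both ways, with 7 rises and 7 falls among 27, against 7.03% and 13.8% of all genes. Itgae (CD103), the integrin that binds epithelial E-cadherin, read 10.48, 10.21 and 11.69 on the T-betKO arrays and 8.86, 8.84, 8.73 and 8.91 on the Stat5ca arrays, highest at day 54 (1.96 ± 0.34, adjusted p = 0.0012). Itga1 (CD49a), which binds collagen, fell by 1.43 ± 0.24, and the lymphocyte exit receptor gene S1pr4 by 0.92. Of 27 cytokine receptor genes 7 rose and 7 fell. Il9r, the interleukin 9 receptor chain, rose by 1.11 and Ifngr2, the interferon gamma receptor chain, by 1.30.

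Among 25 known STAT5 target genes 4 rose and 6 fell (median -0.07), so 10 of 25 were called against 20.8% of all genes. The falls included Myc (-0.70) and Ccnd3 (-0.64), which drive cell growth and division. With the RNA integrity number in the fit 1 of the 25 rose and 2 fell, and neither Myc nor Ccnd3 was called (adjusted p = 0.08 and 0.11). Of 38 cell cycle genes 0 rose and 3 fell (median -0.09), a share under the 13.8% of all genes that fell. Pcna, the sliding clamp of DNA replication, was among them (-0.49). With the myeloid level in the fit 13 of the 38 fell, against 8.94% of all genes in that fit. The myeloid slope is shared by all groups, so that count also depends on arrays outside the comparison. Its cause was not tested. Of 17 naive and memory genes 2 rose and 6 fell (median -0.33), against 7.03% and 13.8% of all genes. Lef1, a factor of naive and memory precursor cells, was at -0.78 and Myb at 0.71. Hopx, a marker of effector persistence, fell by 1.11, and Ikzf3 (Aiolos) by 0.93 (adjusted p = 0.06 with the RNA integrity number). Interferon-stimulated genes gave 3 falls and 0 rises among 21, a share near the 13.8% of all genes that fell, and 0 calls with the myeloid level or the RNA integrity number in the fit. Usp18, which limits interferon signals, was at -1.10 (-0.83, adjusted p = 0.066, with the myeloid level).

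All 8 measured GIMAP genes fell (median -1.05), a family of GTPases of lymphocyte survival that lie in 1 cluster. Gimap7 read 8.98, 8.88 and 9.62 on the T-betKO arrays and 10.61, 10.71, 10.79 and 10.65 on the Stat5ca arrays (-1.53 ± 0.28, adjusted p = 0.0016). Gimap6 fell by 0.88. All 3 T-betKO arrays lay below all Stat5ca arrays for both genes. Without the day 14 arrays 1 of the 8 was called, and 7 with the RNA integrity number in the fit.

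**Figure D3:**
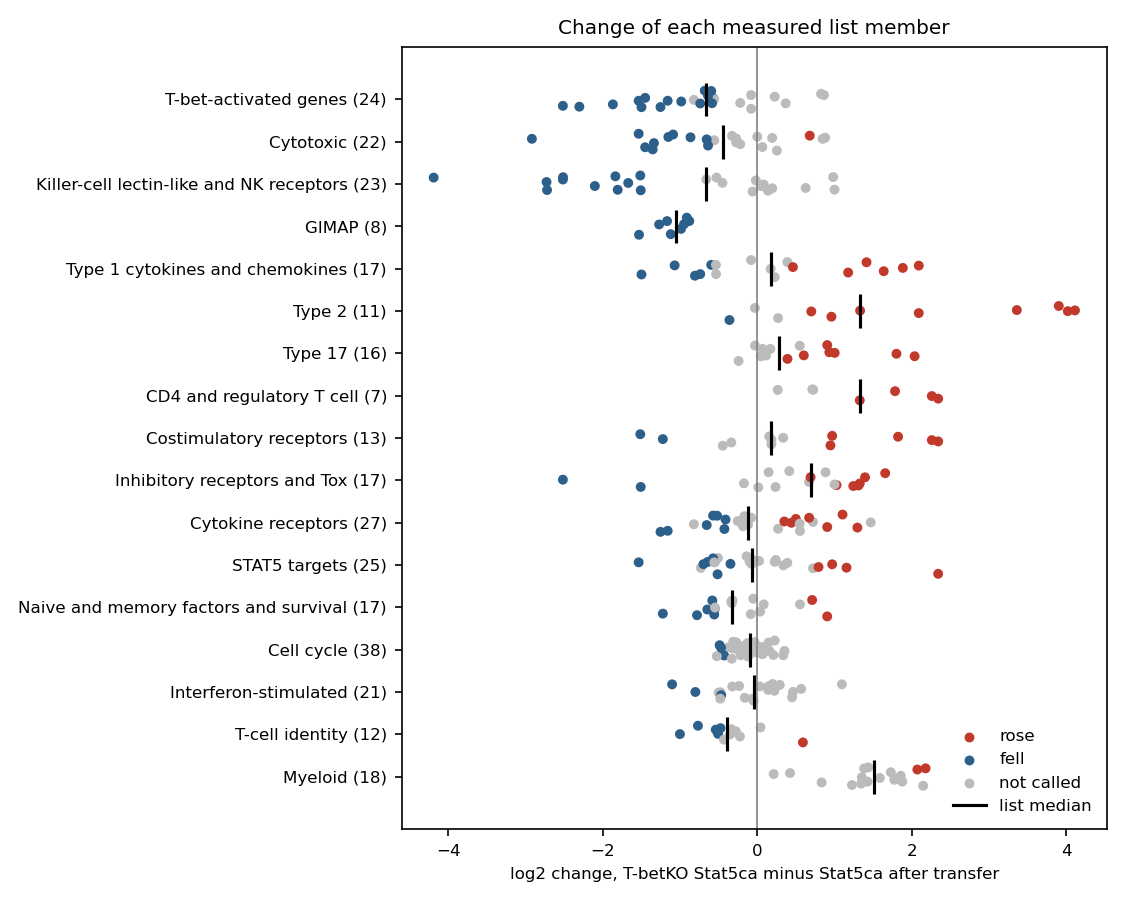
Log2 change, T-betKO Stat5ca minus Stat5ca (horizontal axis), of each measured member of 17 gene lists (number measured in brackets); red members rose, blue members fell at adjusted p under 0.05, grey members were not called, and black bars are list medians. All 8 GIMAP members are blue, 15 of 24 T-bet-activated genes are blue, and 8 of 11 type 2 genes are red.

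The 12 largest rises held further genes outside those lists. Penk, the precursor of enkephalins, read 12.34, 12.23 and 9.28 on the T-betKO arrays and 6.47, 6.52, 6.68 and 6.73 on the Stat5ca arrays (4.68 ± 0.55, or 3.98 counted from background). Retnla, a product of alternatively activated macrophages, read 12.67, 12.52 and 6.92 on the T-betKO arrays, against 6.03, 5.99, 6.26 and 5.83. Ccl24, an eosinophil attractant, read 12.64, 12.71 and 7.91 on the T-betKO arrays and 7.61, 7.28, 7.28 and 7.45 on the Stat5ca arrays. Both were near the Stat5ca arrays at day 54, as myeloid markers were.

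Arg1, the arginase of macrophages, followed the same course (11.50, 11.46 and 6.82 on the T-betKO arrays, 6.80, 6.75, 6.61 and 6.66 on the Stat5ca arrays), and its call was lost without replicate 40 (2.46, adjusted p = 0.055). Ccl8, a monocyte chemokine, read 11.17, 10.98 and 9.20 on the T-betKO arrays and 6.50, 6.91, 6.64 and 6.71 on the Stat5ca arrays. The T-betKO changes over all 3 arrays were 4.68 ± 0.98 for Retnla, 3.68 ± 0.74 for Ccl24, 3.22 ± 0.74 for Arg1 and 3.76 ± 0.48 for Ccl8, or 3.40, 2.62 and 3.14 for Retnla, Arg1 and Ccl8 counted from background. The part of myeloid cells in these values was not tested. With the myeloid level in the fit the changes were 3.66, 3.05, 2.63 and 3.41 in the same order, and all 4 remained called. The myeloid slope in that fit is shared by all groups. Over the naive arrays the myeloid level ran from 7.71 to 11.45, while these 4 genes read 6.05 to 7.51. A shared slope can therefore leave in place a rise tied to myeloid cells on the T-betKO arrays alone. The part of myeloid cells was thus not tested by that fit either. Retnla, Ccl24 and Arg1 were not called with the RNA integrity number in the fit (3.11, 2.35 and 1.83, adjusted p = 0.13, 0.12 and 0.21).

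The mast cell protease genes Mcpt1 and Mcpt4 rose too. Mcpt1 read 10.47, 9.92 and 5.41 on the T-betKO arrays and 5.24, 5.06, 5.14 and 5.12 on the Stat5ca arrays, high at day 14 only (3.46 ± 0.74, or 1.30 counted from background). Mcpt4 read 9.30, 8.69 and 8.95 on the T-betKO arrays, against 5.77, 6.17, 5.58 and 6.23, and stayed high at day 54 (3.04 ± 0.36, adjusted p = 6.35e-05, or 1.67 counted from background). Cpa3, a mast cell carboxypeptidase, rose by 3.19 ± 0.63 (3.07 counted from background). Mcpt1 and Cpa3 were not called with the RNA integrity number in the fit (adjusted p = 0.16 and 0.091). Kit, the receptor that defines mast cells, was not called (-0.31, adjusted p = 0.51).

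Bpifa2, a secreted salivary protein gene, read 10.89, 10.79 and 11.98 on the T-betKO arrays and 6.34, 6.40, 6.63 and 6.32 on the Stat5ca arrays (4.80 ± 0.86, or 3.91 counted from background). Control cells after transfer read 6.68 on 1 array and 12.59 on the other, and naive cells averaged 12.74. Snord118, which codes for a small nucleolar RNA, read 12.73, 12.95 and 12.61 on the T-betKO arrays and 7.97, 7.98, 7.47 and 8.36 on the Stat5ca arrays (4.82 ± 0.67). Transferred control cells read 10.87 and 11.23. The labelling kit differs with genotype, and the 2 cannot be told apart here.

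**Figure D4:**
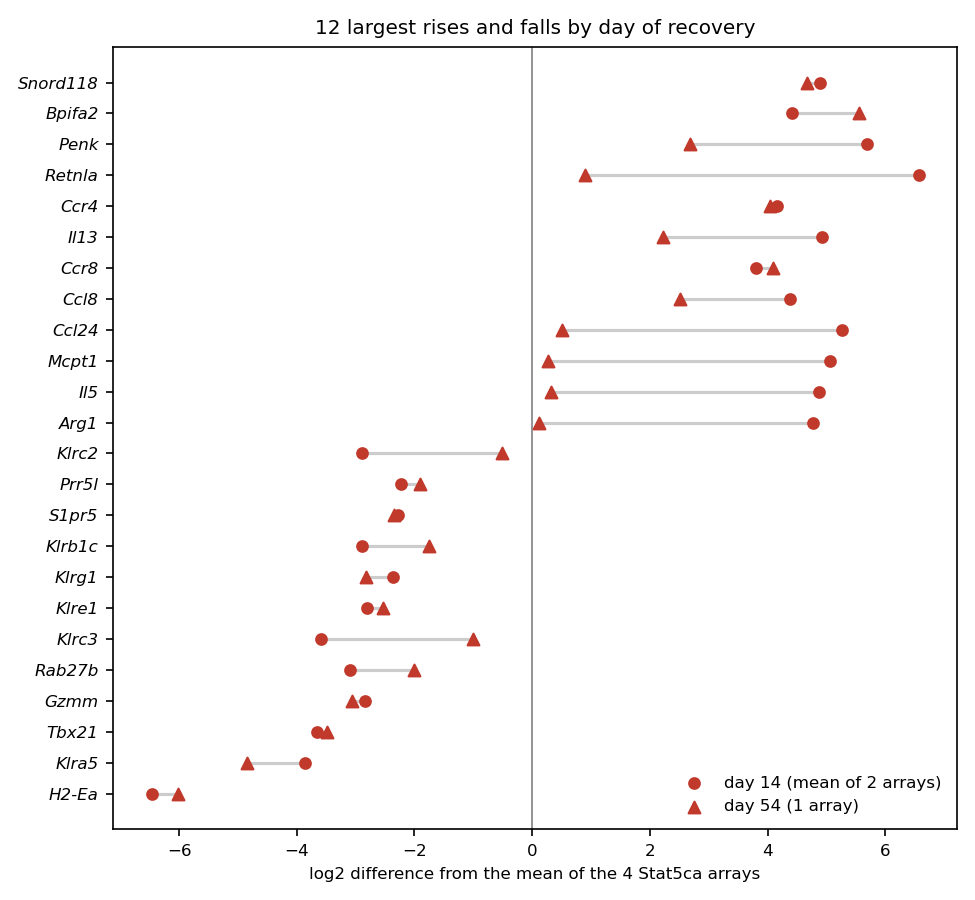
Log2 difference from the mean of the 4 Stat5ca arrays (horizontal axis) at day 14 (circles, mean of 2 arrays) and day 54 (triangles, 1 array) for the 12 largest rises and 12 largest falls in T-betKO Stat5ca cells. Ccr4, Ccr8, Gzmm, Tbx21, Klre1 and S1pr5 differ about equally at both days, whereas Retnla, Ccl24, Mcpt1, Il5 and Arg1 are raised at day 14 and within 1 of the Stat5ca mean at day 54.

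The changes fell into sets by their size at day 54. Among the falls, Klrg1 differed by -2.82 at day 54, Gzmm by -3.06 and Klra5 by -4.84. Among the rises, Ccr4 differed by 4.04 at day 54, Ccr8 by 4.10, Itgae by 2.85, Foxp3 by 2.46 and Cd40lg by 2.20. All of these passed the test with the day 54 array as the only T-betKO array, where 715 genes (3.59%, 1.4% rising and 2.19% falling) were called and where the lone array is assumed to vary like the other groups. Of the 98 called genes named here, 47 were called in that fit. Ifng, at -0.90 (adjusted p = 0.23), and Il5, at 0.33 (adjusted p = 0.31), were not.

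Promoter sequences are shown for a pair of fallen genes of killer cells that hold a T-box half-site. Its letters are AGGTGTGA or, on the other strand, TCACACCT. Samd3 fell most among fallen genes with the half-site whose groups do not overlap, and Nkg7 was taken from the T-bet-activated list. In both the match starts within 20 bases before the start site, a position that played no part in the choice. The windows of 300 bases end 50 bases after the start site (RefSeq, GRCm38.p6), and the match stands in capitals. Samd3 lies at chr10:26229457-26229756 (plus strand) and Nkg7 at chr7:43436888-43437187 (plus strand).
Samd3: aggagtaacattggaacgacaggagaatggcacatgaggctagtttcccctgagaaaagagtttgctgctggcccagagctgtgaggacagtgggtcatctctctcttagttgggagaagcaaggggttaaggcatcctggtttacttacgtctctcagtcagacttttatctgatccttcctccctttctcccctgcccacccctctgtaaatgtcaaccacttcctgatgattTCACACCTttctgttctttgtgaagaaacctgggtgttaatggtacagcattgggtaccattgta
Nkg7: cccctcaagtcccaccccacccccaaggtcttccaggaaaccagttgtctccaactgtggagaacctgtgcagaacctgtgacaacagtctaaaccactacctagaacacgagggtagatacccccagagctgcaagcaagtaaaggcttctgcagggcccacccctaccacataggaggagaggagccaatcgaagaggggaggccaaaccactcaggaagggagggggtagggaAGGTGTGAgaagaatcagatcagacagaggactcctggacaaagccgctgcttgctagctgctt
Samd3 read 8.11, 7.99 and 9.86 on the T-betKO arrays and 10.58, 10.55, 10.97 and 10.64 on the Stat5ca arrays (-2.03 ± 0.31, adjusted p = 0.00048). Nkg7 read 13.35, 13.22 and 13.76 on the T-betKO arrays, against 14.05, 14.07, 14.11 and 14.08. A match is a description and not a bound site. Searched on both strands, the half-site was found in 26 of 2195 promoters of fallen genes (1.18%), in 21 of 1089 of risen genes (1.93%) and in 204 of 15614 of all measured genes (1.31%). It was in 1 of 95 promoters of genes that fell at least 2-fold (1.05%), so fallen genes did not hold it at a higher share in these windows. Its shorter core, GGTGTG, was in 19.9% of fallen, 22.8% of risen and 21.2% of all promoters.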

How the data were processed

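The series holds 19 Affymetrix mouse gene arrays of CD8 T-cell RNA, and 7 of them enter the comparison. The authors deposited log2 signals, 1 per probe set. Per the submitters' processing notes the authors used Affymetrix Expression Console; its version, summarization and normalization are not given in the sources at hand. The log2 scale was read from the range of the values. Probe sets were named through the platform annotation: 21789 of 35557 carried 1 gene, 1621 several and 12147 none. The brightest probe set over all arrays stood for each of 19938 genes.

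All 19 arrays entered a limma 3.58.1 fit (R 4.3.3, lmFit and eBayes) with 1 mean per group, and p-values were adjusted over all genes by Benjamini and Hochberg. The step was tested on simulated data. Array medians were 7.96 to 8.05 over the 7 arrays, with 62.9% to 65.9% of genes above background; the number of arrays limits the precision. Per-gene changes are given with SE.

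Members, gene lists (457 of 519 listed genes measured) and the naming rule were chosen with earlier results of these data known, and 3 lists after values were seen. Genes named are Tbx21, Eomes, Stat5a, Stat5b, the 12 largest rises and falls whose groups do not overlap, up to 5 called members per list and direction, and uncalled members of the type 1, 2, 17, cytotoxic, T-box and T-bet lists. Il17rb, Samd3, H2-Aa, H2-Ab1, H2-Eb1, Kit, Chil3, the receptor segments, Cd4, Xist and Eif2s3y were added after their values were seen where the rule does not name them. The 21 alternatives include other normalizations, covariates, filters and left-out arrays.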

Additional observations from a re-analysis of the deposited data

Results flagged for a closer look

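Single Stat5ca arrays stood apart for 16 of the 114 genes examined, with a gap to the nearest other array above Dixon's 95% critical value for 4 samples. Chance flags about 1 in 20 groups. In 14 of the 16 the array was Stat5ca replicate 13, which also had the lowest myeloid level of its group. The T-betKO group, with 3 arrays, was not tested in this way.

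Stat5ca replicate 13 was above the mean of the other 3 Stat5ca arrays for Il12rb2 (12.36 against 11.75), Zeb2 (9.96 against 9.29), Gzmk (12.25 against 11.28), Hopx (10.54 against 10.44), Kit (9.56 against 9.05) and the Y-linked gene Eif2s3y (10.44 against 5.09). It was below that mean for Irf4 (8.85 against 9.90), Il6ra (9.69 against 10.21), Il2 (6.02 against 6.31), Icos (10.03 against 10.43), Ifngr2 (10.14 against 10.84), Cd5 (10.84 against 11.01), Cpa3 (6.23 against 7.51) and Xist (10.09 against 12.69). Replicate 12 was lowest for Ccl1 (7.21 against 7.37) and replicate 14 for Foxp3 (8.13 against 8.28). The calls of Il12rb2, Hopx, Irf4, Il6ra, Il2, Icos, Ifngr2, Cd5, Cpa3, Ccl1, Foxp3 and Gzmk were kept when the named array was left out.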

How the results depend on the processing

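The main counts were 4155 called, 1401 risen and 2754 fallen genes. A 2-fold minimum gave 526 calls (401 risen, 125 fallen), array weights 6870 (2618 risen, 4252 fallen) and the RNA integrity number as a covariate 1379 (367 risen, 1012 fallen). Without the day 14 T-betKO arrays the counts were 715, 279 and 436. All of these moved by over 1.5 times. The myeloid level as a covariate gave 2724 called and 1783 fallen, also over 1.5 times fewer, and 941 risen, within 1.5 times. Leaving out 1 array at a time gave 1790 to 5237 called, 532 to 1984 risen and 1258 to 3253 fallen genes. All of the lowest counts were without T-betKO replicate 40 and the highest without replicate 41. The other 9 settings stayed within 1.5 times. The cause of these moves was not tested.

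Of the 114 genes examined 98 were called. Among these 98 the sign turned for Cd8a alone, at 0.0723 without the day 14 arrays. Of the 98, 95 stayed called with the myeloid level, 67 with the RNA integrity number, 97 after quantile normalization and 47 without the day 14 arrays. No paired analysis was possible because the groups share no replicate number. Group sizes of 3 and 4 arrays and signals near background limit small changes most.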

Other observations

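After values were seen, 3 further marker lists were made. Of 10 alternatively activated macrophage genes 8 rose and 0 fell (median 2.39). Their mean signal was 11.05 and 10.86 at day 14 and 8.05 at day 54 on the T-betKO arrays, against 7.37, 7.43, 7.14 and 7.40 on the Stat5ca arrays and 8.59 and 7.71 in transferred control cells. Chil3, a chitinase-like protein of such macrophages, read 11.51, 11.24 and 7.05 on the T-betKO arrays and 7.78, 8.17, 5.93 and 8.06 on the Stat5ca arrays, and was not called (2.45, adjusted p = 0.18). Of 11 mast cell and basophil genes 6 rose, and of 4 eosinophil genes 2 rose. The eosinophil list averaged 9.80 and 9.64 at day 14 and 7.85 at day 54 on the T-betKO arrays, against 8.03, 8.05, 7.40 and 8.01 on the Stat5ca arrays.

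Myeloid markers averaged 12.09 and 12.02 on the day 14 T-betKO arrays and 12.11 on transferred control replicate 30, with the other control array close to it. The type 2 list read 9.85 on T-betKO replicate 40, the lower of the day 14 arrays, and 7.46 on both control arrays. The alternatively activated macrophage list read 11.05 and 10.86 on the day 14 arrays and 8.59 and 7.71 on the control arrays. The part of myeloid cells in the type 2 values was not tested. Egr2, a transcription factor of receptor signalling, read 11.21, 10.90 and 9.53 on the T-betKO arrays and 8.82, 8.77, 8.28 and 8.88 on the Stat5ca arrays (1.86 ± 0.29, adjusted p = 0.00054).

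Of the 40 genes nearest to Tbx21 on chromosome 11, 6 were called, all lower and none below -0.49, a share under the 20.8% called over all genes. Of the 40 nearest to H2-Ea on chromosome 17, 11 were called, 10 higher and 1 lower, against 20.8% called and 7.03% risen over all genes, led by the complement gene C4b (1.91).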
